A study of Homo sapiens with 15 samples.

Results

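UCHL1, CKB, EEF1A2, NFIX, BCAT1 and CAMK1 are genes best known for their activity in the brain. They were selected by their symbols as 6 of the 12995 genes measured, and were chosen on these same libraries for a large rise over the normal oral line OKF6 or for a large difference between the oral cancer lines SCC15 and SCC25. No numeric threshold defined that choice. Differences between OKF6 and the +YBX1 libraries of the cancer lines are therefore described with their values and carry no test for these 6 genes.

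RNA was measured in 15 libraries, 3 for each of 5 groups. OKF6 is a line of normal oral epithelial cells, labelled wild type and given no doxycycline. SCC15 and SCC25 are lines from oral squamous cell carcinoma in which Cas9, marked by mCherry, and a doxycycline-inducible guide against YBX1, marked by GFP, had been introduced by lentivirus. Cells carrying both markers were sorted and then expanded, with no step through single clones named. The +YBX1 groups (labelled wild type) carried these constructs without doxycycline, and the -YBX1 groups (labelled YBX1 knockout) received 1 µg/ml doxycycline. All 5 groups carry a time label of 3 days. OKF6 and SCC25 were grown in serum-free keratinocyte medium and SCC15 in a medium with serum. In comparisons with SCC15 the line and its medium therefore cannot be told apart. No constructs or sorting are described for OKF6, so in comparisons with OKF6 these cannot be told apart from the line. No group received doxycycline without the guide, so in the knockdown comparisons the drug and the loss of YBX1 cannot be told apart. No label tells whether the replicates of a group came from separate cultures, and the tests then measure the spread between these libraries only.

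The proteins belong to different systems. UCHL1 is a ubiquitin hydrolase abundant in neurons, EEF1A2 is the form of elongation factor eEF1A used by neurons and muscle in place of the near-ubiquitous EEF1A1, and CKB is the brain-type creatine kinase, which buffers ATP. BCAT1 is the cytosolic aminotransferase for leucine, isoleucine and valine, NFIX is a nuclear factor I transcription factor of neural development, and CAMK1 is a kinase switched on by calcium and calmodulin. YBX1, the protein targeted in the knockdown, binds RNA and is named after the Y-box, a promoter element that contains a CCAAT sequence.

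Levels are log2 CPM, the logarithm of reads scaled to a common library size. Libraries held between 4075290 and 6118501 reads on genes, and 3 reads, taken as the floor of detection, were worth 0.414 to 0.677 CPM. This precision covers counting error only. Reads come from the 3′ end of transcripts, so a gene's level does not grow with its length. OKF6 libraries correlated less with each other (mean r over all genes 0.902 to 0.912) than those of the other groups (0.942 to 0.972), and OKF6 replicate 1 stood apart for several of the 6 genes. YBX1 itself had a mean of 5.55 log2 CPM in SCC15 +YBX1 and 3.40 in SCC15 -YBX1, and of 6.55 and 4.54 in SCC25. Its drop was seen in 3 of 3 same-numbered pairs of each line, at 2.15 and 2.01 log2 units, with adjusted p = 0.33 and 0.29 (limma).

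The libraries labelled SCC15, a squamous carcinoma line, held little RNA of epithelial marker genes, although per the labels all lines had been checked by short tandem repeat typing. The study classed SCC15 as mesenchymal-like, and its western blots found PDPN but not CDH1 protein in this line. The 11 epithelial marker genes summed to 151 to 184 CPM in SCC15 +YBX1 and to 128 to 151 CPM in SCC15 -YBX1. The same sum lay between 25199 and 35256 CPM in OKF6 and between 8338 and 25314 CPM in the SCC25 libraries. TP63, a defining factor of squamous epithelium, had 1 read in all in the 3 SCC15 +YBX1 libraries and 2 reads in SCC15 -YBX1, against 2011 reads in OKF6. CDH1, the epithelial cadherin, had a mean of -0.12 log2 CPM in SCC15 +YBX1 and 7.0 in SCC25 +YBX1. Of 9 mesenchymal markers 8 were in the tables. They summed to 449 to 488 CPM in SCC15 +YBX1, 808 to 1938 CPM in OKF6 and 2459 to 3237 CPM in SCC25 +YBX1. FN1 was the highest of them in OKF6 and SCC25 +YBX1, with means of 1059 and 1932 CPM against 18.2 CPM in SCC15 +YBX1. By gene, 4 were higher and 1 lower in SCC15 +YBX1 than in OKF6 (limma), beside 26.9% and 23.4% of all genes.

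Markers of nerve cells did not move as a block with the cancer label. Of 18 neuronal markers 10 were in the tables. Of these, 7 were higher and 3 lower in SCC15 +YBX1 than in OKF6, and 1 was higher and 1 lower in SCC25 +YBX1 (limma). Those lower were ELAVL2 (means of 5.12 log2 CPM in OKF6 and 3.61 in SCC15 +YBX1), MAP2 (3.20 and 1.12) and TUBB3 (5.80 and 5.04). The call of TUBB3, 1 of the 3 lower, was lost with library medians or quantiles set equal (adjusted p = 0.06 and 0.052). Their summed level was 91.5 to 121 CPM in OKF6, 142 to 176 CPM in SCC15 and 99.8 to 145 CPM in SCC25. The neurofilament gene NEFL had 2 reads in all in OKF6, against means of 5.15 log2 CPM in SCC15 +YBX1 and 4.65 in SCC25 +YBX1. INA, the neuronal filament protein internexin, had no read in OKF6 and 1 read in SCC25 +YBX1, and its mean in SCC15 +YBX1 (34.1 CPM) was at least 58.2-fold higher than the floor of 3 reads per OKF6 library. Of 9 neuroendocrine markers 5 were in the tables, summing to 0.337 to 6.54 CPM in OKF6, 57.6 to 128 CPM in SCC15 and 5.38 to 13.0 CPM in SCC25. INSM1, a neuroendocrine transcription factor, had no read in OKF6 or in either SCC25 group and reached at least 31.6-fold the OKF6 floor in SCC15 +YBX1. Neuroendocrine genes gave 5 higher of 5 in SCC15 +YBX1 and 0 in SCC25 +YBX1. Over all genes 26.9% and 18.9% were higher in these comparisons. The study's methods name a filtration step for expression. A neuronal, neuroendocrine or glial marker with few or no reads in the other lines may have passed it only through SCC15. Any other gene with few or no reads in OKF6 may likewise have passed it only through the lines where it is high. The counts of markers higher in SCC15, and the calls of such genes in the lists below, can follow from that step and are given as description only. Of 9 glial markers 4 were in the tables, with 2 higher and 2 lower in SCC15 +YBX1 and 1 lower in SCC25 +YBX1, with OLIG2, a factor of oligodendrocyte precursors, at no read in OKF6 and SCC25 and a mean of 4.07 log2 CPM in SCC15 +YBX1, while MBP, of myelin, had a mean of 6.89 in OKF6 and -2.27 there (adjusted p = 3.9e-07, limma). In such bulk libraries, fewer cells of a type and less RNA per cell cannot be told apart. The part of these marker levels in the values of the 6 genes was not tested.

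**Figure D1:**
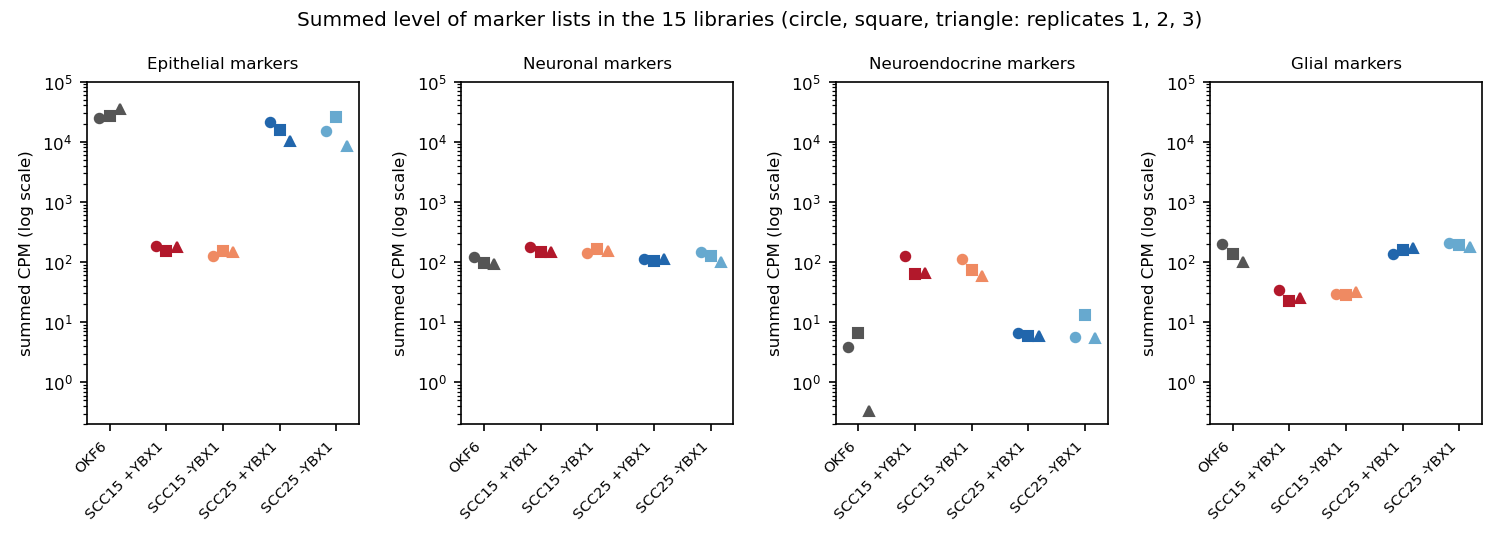
Summed level, in CPM on a log scale, of the epithelial, neuronal, neuroendocrine and glial marker genes in each of the 15 libraries, by group. The SCC15 libraries lie at 128 to 184 CPM for the epithelial list, where all others are at 8338 CPM or more, and at 57.6 CPM or more for the neuroendocrine list, where no other library exceeds 13.0 CPM.

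Promoters are shown for CKB, UCHL1 and CAMK1, which hold the CCAAT and TATA matches found in the windows at the main start of each gene. CCAAT is the core of the element YBX1 is named for. RefSeq start-site windows (GRCh38.p14) were found for 5 of the 6 genes, EEF1A2 being the other. The stretches printed are those parts of the 250 bases before the main start that lie outside every annotated exon, 5′ to 3′ on the strand of the gene. They cover chr14:103522834-103523080 (minus strand) for CKB, chr4:41256804-41256907 (plus strand) for UCHL1 and chr3:9769993-9770197 (minus strand) for CAMK1. Capitals mark matches on either strand to the CCAAT box, the TATA box (letters TATAAA), the GC box (letters GGGCGG) or the E-box (letters CACGTG).
CKB promoter: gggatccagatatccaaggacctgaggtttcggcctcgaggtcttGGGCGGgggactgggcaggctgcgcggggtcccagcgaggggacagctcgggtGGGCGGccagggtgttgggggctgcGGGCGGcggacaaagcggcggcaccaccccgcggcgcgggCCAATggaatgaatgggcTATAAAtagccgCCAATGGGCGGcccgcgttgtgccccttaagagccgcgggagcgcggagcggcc
UCHL1 promoter: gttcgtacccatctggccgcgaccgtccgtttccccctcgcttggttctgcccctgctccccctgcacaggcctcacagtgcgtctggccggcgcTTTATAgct
CAMK1 promoter: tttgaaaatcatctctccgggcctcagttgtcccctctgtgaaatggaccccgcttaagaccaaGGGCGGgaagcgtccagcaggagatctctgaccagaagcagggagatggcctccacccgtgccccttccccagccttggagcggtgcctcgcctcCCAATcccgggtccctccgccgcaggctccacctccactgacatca

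The CKB promoter held 2 CCAAT boxes, 87 and 57 bases before the start, on either side of a TATA box at 69 bases, and 4 GC boxes. UCHL1 had a TATA sequence on the reverse strand 29 bases before its start, and CAMK1 had a single CCAAT box at 91 bases. The GC boxes of UCHL1 at 13 bases and of CAMK1 at 34 bases lie outside the printed stretches. The Y-box sequence CTGATTGG, whose last 5 bases are CCAAT read on the other strand, was in none of the 5 windows at a main start and in 3.81% of 35116 windows, which cover all start sites of all genes. CCAAT was in 2 of the 5 main windows against 32% of all windows, TATAAA in 2 against 10.7%, GGGCGG in 5 against 42.6%, CACGTG in 1 (NFIX) against 6.34%, and the NFI half-site TTGGCA in none against 10.8%. NFIX and BCAT1 have further start sites, which bring the 5 genes to 13 windows. Counted at any start, CCAAT was found for 4 of the 5 genes (CKB, NFIX, BCAT1 and CAMK1) against 37% of 27305 genes, and TATAAA for 3 (UCHL1, CKB and BCAT1) against 13%. The 5 windows held 17 to 37 CpG dinucleotides, where the median of all windows was 11. These are matches of letters and say nothing about binding.

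UCHL1 (ENSG00000154277, chr4:41256413-41268455, plus strand, hg38, with 9 exons in its main transcript) removes small adducts from the end of ubiquitin. In OKF6 it had 0, 0 and 5 reads in replicates 1 to 3. SCC15 +YBX1 gave 8.16, 8.34 and 8.52 log2 CPM and SCC15 -YBX1 gave 7.75, 8.31 and 8.42. SCC25 +YBX1 gave 6.54, 6.56 and 6.33, and SCC25 -YBX1 gave 6.64, 6.48 and 6.67. The gene was thus near or under the floor in OKF6, highest in SCC15 (mean 325 ± 39.9 CPM, SD, n = 3, in +YBX1) and lower in SCC25 (89.2 ± 7.81 CPM), with no overlap between the 3 lines. The log2 difference from OKF6 was 10.55 in SCC15 +YBX1 and 8.69 in SCC25 +YBX1, or 8.05 and 6.2 on the log2(CPM + 1) scale, since the size rests on what is added to counts near 0.

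Relatives of UCHL1 did not share this pattern. UCHL3, the closest member of the family, had a mean of 6.44 log2 CPM in OKF6 and was lower in SCC15 +YBX1 (difference -1.06, adjusted p = 0.0019, limma), while its difference of -0.59 in SCC25 +YBX1 did not pass (adjusted p = 0.061). UCHL5, a proteasome-bound relative, gave -0.64 and 0.04 with adjusted p = 0.17 and 0.96. Over all genes 50.3% differed between SCC15 +YBX1 and OKF6 (26.9% higher, 23.4% lower), 30.2% between SCC25 +YBX1 and OKF6 (18.9% higher, 11.3% lower), and 43.6% between SCC15 +YBX1 and SCC25 +YBX1 (20.0% higher in SCC15, 23.6% lower). With quantiles set equal, the 2450 genes higher and 1473 lower in SCC25 became 2006 and 1837. Of the 11 ubiquitin and deubiquitinase genes, 1 was higher and 2 were lower in SCC15 +YBX1 than in OKF6, and 2 were higher in SCC25 +YBX1. The polyubiquitin gene UBB was among those higher in both lines, by 1.81 and 1.2 (adjusted p = 0.00042 and 0.011). The median difference of this list was 0.34 in SCC15 and 0.30 in SCC25, beside 0.10 and 0.13 over all genes.

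EEF1A2 (ENSG00000101210, chr20:63488013-63499239, minus strand, 8 exons) brings aminoacyl-tRNA to the ribosome. OKF6 held 2, 8 and 17 reads, that is -1.06, 0.94 and 1.56 log2 CPM. SCC15 +YBX1 gave 8.48, 7.99 and 8.45, and SCC15 -YBX1 gave 8.66, 8.12 and 8.13. SCC25 +YBX1 gave 5.86, 5.82 and 4.77, and SCC25 -YBX1 gave 4.98, 5.72 and 4.81. SCC15 stood highest with a mean of 320 ± 57.0 CPM (SD, n = 3) in +YBX1, SCC25 next with 47.2 ± 17.3 CPM, and OKF6 last with 1.68 ± 1.25 CPM, again with no overlap between lines. The +YBX1 lines exceeded OKF6 by 7.83 and 5.01 log2 units. Replicate 3 of SCC25 +YBX1 and replicates 1 and 3 of SCC25 -YBX1 formed the low end of that line.

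EEF1A1, the near-ubiquitous form, was lower in both cancer lines: its mean was 6.43 log2 CPM in OKF6, 3.84 in SCC15 +YBX1 and 3.6 in SCC25 +YBX1, differences of -2.60 and -2.84 (adjusted p = 0.00063 and 0.001, limma). Its own level is uncertain, since it has many near-identical copies in the genome and the treatment of reads that match several places is not given in the sources used here. EEF1A2 does not share that limit: all 86 pieces of 75 bases from its last 500 bases mapped to its own locus and none as well elsewhere, and the same held for each of the other 5 genes. Of the 13 further elongation genes in the tables, 1 was higher and 3 lower in SCC15 +YBX1 than in OKF6, and 1 higher and 1 lower in SCC25 +YBX1, with medians of 0.21 and 0.28. The gene higher in SCC25, the release factor GSPT1, lost its call with quantiles set equal (adjusted p = 0.26), and EEF1AKMT2, 1 of the 3 lower in SCC15, with medians or quantiles set equal (adjusted p = 0.09 and 0.07). EEF1G, a subunit of the exchange factor that recharges eEF1A with GTP, was higher in SCC15 by 0.94 (adjusted p = 0.0039). Between the lines without knockdown 2 were higher and 2 lower in SCC15, with a median of 0.24 beside -0.01 over all genes. EEF2, the translocation factor, was higher in SCC15 by 0.96 (adjusted p = 0.01), while EEF1AKMT2, a methyltransferase for eEF1A, was lower (difference -1.57, adjusted p = 0.0033).

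CKB (ENSG00000166165, chr14:103519667-103522833, minus strand, 8 exons) moves phosphate between creatine and ATP. OKF6 gave 4.25, 5.51 and 5.75 log2 CPM. SCC15 +YBX1 gave 12.48, 11.84 and 11.92, and SCC15 -YBX1 gave 11.67, 12.06 and 12.12. SCC25 +YBX1 gave 9.16, 9.58 and 8.75, and SCC25 -YBX1 gave 8.92, 10.11 and 9.08. The lines did not overlap: the mean was 4413 ± 1119 CPM (SD, n = 3) in SCC15 +YBX1, where CKB ranked 16 among all genes, 589 ± 169 CPM in SCC25 +YBX1 and 39.4 ± 18.2 CPM in OKF6. The log2 difference from OKF6 was 6.91 in SCC15 +YBX1 and 3.99 in SCC25 +YBX1. OKF6 replicate 1 was the low library of its group, and SCC25 -YBX1 replicate 2 the high one, in a library where the 10 leading genes took 16.2% of all reads, the largest share of the 15.

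In SCC15 and SCC25 the mitochondrial creatine kinases lay below the range of CKB. CKMT1A had means of 6.01 log2 CPM in OKF6, 6.05 in SCC15 +YBX1 and 5.33 in SCC25 +YBX1, and neither difference from OKF6 passed (adjusted p = 0.93 and 0.16, limma). CKMT1B gave 5.25, 5.34 and 3.94, a difference of -1.31 in SCC25 that did pass (adjusted p = 0.0089). CKMT1A and CKMT1B are near-identical copies, so the split of reads between them is uncertain. GAMT, the last enzyme of creatine synthesis, had no read in OKF6 and reached at least 27.4-fold the OKF6 floor in SCC15 +YBX1, with a mean of 16.04 CPM. In SCC25 +YBX1 it had 17 reads in all. It was called higher in both lines (adjusted p = 1.1e-06 and 0.0007, limma), under the limit of the filtration step. Of 7 genes of the creatine system 4 were in the tables. Of these, 1 was higher in SCC15 +YBX1 than in OKF6, 1 higher and 1 lower in SCC25 +YBX1, and 2 higher in SCC15 +YBX1 than in SCC25 +YBX1, with medians of 0.07, -0.45 and 1.06.

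BCAT1 (ENSG00000060982, chr12:24810024-24949101, minus strand, 11 exons) passes the amino group of branched-chain amino acids to glutamate. OKF6 was uneven, with 15, 0 and 28 reads (1.57, -3.15 and 2.26 log2 CPM). SCC15 +YBX1 gave 6.23, 6.55 and 6.33, and SCC15 -YBX1 gave 7.28, 6.60 and 6.19. SCC25 +YBX1 gave 6.22, 6.35 and 6.63, and SCC25 -YBX1 gave 6.53, 5.99 and 6.54. BCAT1 was thus the member with a like level in both cancer lines: 82.9 ± 9.64 CPM (SD, n = 3) in SCC15 +YBX1 and 84.9 ± 12.7 CPM in SCC25 +YBX1 overlapped, and both lay above every OKF6 library (highest 4.72 CPM). The difference from OKF6 was 6.14 and 6.17 log2 units, or 4.45 and 4.48 without OKF6 replicate 2, the library with no read. Between the +YBX1 lines it was -0.03, and its sign turned with library medians set equal (0.12) and with quantiles set equal (0.20).

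BCAT2, the mitochondrial form, had means of 3.74 log2 CPM in OKF6, 5.21 in SCC15 +YBX1 and 4.56 in SCC25 +YBX1, higher than OKF6 by 1.47 in SCC15 (adjusted p = 0.027, limma) and by 0.81, not passing, in SCC25 (adjusted p = 0.23). All 19 further genes of branched-chain amino acid breakdown and uptake were in the tables. Against OKF6, 7 were higher and 3 lower in SCC15 +YBX1, and 2 higher and 5 lower in SCC25 +YBX1, with medians of 0.25 and 0.00. Lower in both lines were SLC7A5, the chain of the LAT1 transporter that carries these amino acids into the cell, with differences of -3.68 and -2.19 (adjusted p = 3.5e-06 and 0.00055), and HIBADH, of valine breakdown, with -2.98 and -3.54 (adjusted p = 0.003 and 0.0025). Between the +YBX1 lines 7 were higher and 4 lower in SCC15, with a median of 0.61. They included ACADSB, a dehydrogenase of isoleucine breakdown, higher by 2.81 (adjusted p = 0.00011), and SLC3A2, the other chain of LAT1, lower (difference -1.79, adjusted p = 9.7e-05). DBT, of the branched-chain ketoacid dehydrogenase and 1 of the 4 lower, lost its call with medians or quantiles set equal (adjusted p = 0.079 and 0.077).

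NFIX (ENSG00000008441, chr19:12995475-13098796, plus strand, 11 exons) binds DNA as a dimer of the nuclear factor I family. OKF6 gave 3.67, 2.14 and 2.05 log2 CPM. SCC15 +YBX1 gave 5.46, 5.55 and 5.03, and SCC15 -YBX1 gave 5.07, 5.01 and 5.19. SCC25 +YBX1 gave 8.60, 8.81 and 9.41, and SCC25 -YBX1 gave 8.82, 8.86 and 9.18. NFIX was the member whose SCC25 libraries all lay above those of SCC15, with a mean of 506 ± 154 CPM (SD, n = 3) in +YBX1 against 41.1 ± 7.47 CPM in SCC15 +YBX1 and 6.99 ± 4.90 CPM in OKF6. It exceeded OKF6 by 6.32 log2 units in SCC25 +YBX1 and by 2.73 in SCC15 +YBX1. OKF6 replicate 1 was the high library of its group.

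No rise over OKF6 was called for the other NFI genes. NFIB had means of 6.55 log2 CPM in OKF6, 4.03 in SCC15 +YBX1 and 4.66 in SCC25 +YBX1, differences of -2.51 and -1.89 (adjusted p = 1.1e-05 and 0.00035, limma). NFIA gave differences of -0.68 and -1.13 (adjusted p = 0.031 and 0.0045), but its call in SCC15 was lost with library medians set equal (-0.52, adjusted p = 0.09) and with quantiles set equal (-0.55, adjusted p = 0.087). NFIC had 103 reads in OKF6, all in a single library, and gave 0.37 and 1.92 with adjusted p = 0.87 and 0.43. Of these 3 genes, 2 were lower in each comparison with OKF6, with medians of -0.68 and -1.13, and none was called between the +YBX1 lines (0 of 3, median -0.62).

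CAMK1 (ENSG00000134072, chr3:9757347-9769992, minus strand, 12 exons) is activated by CaM kinase kinases. OKF6 gave 4.77, 2.06 and 1.72 log2 CPM, from 142, 18 and 19 reads. SCC15 +YBX1 gave 8.35, 8.51 and 8.28, and SCC15 -YBX1 gave 8.23, 8.29 and 8.32. SCC25 +YBX1 gave 2.78, 3.20 and 2.80, and SCC25 -YBX1 gave 2.97, 4.0 and 3.36. The gene was high only in the SCC15 libraries, with a mean of 333 ± 27.5 CPM (SD, n = 3) in +YBX1. SCC25 +YBX1, at 7.56 ± 1.298 CPM, overlapped OKF6, at 11.5 ± 13.6 CPM. The difference of 0.08 log2 units between SCC25 +YBX1 and OKF6 rested on OKF6 replicate 1: without that library it was 1.04, and without OKF6 replicate 3 it was -0.49. SCC15 +YBX1 exceeded OKF6 by 5.53 log2 units.

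The last exon of CAMK1 overlaps an exon of OGG1, a DNA repair gene on the opposite strand, and strand use in the counting is not given in the sources used here. OGG1 was looked at for this overlap after the CAMK1 values were seen. It had means of 4.46 log2 CPM in OKF6, 5.06 in SCC15 +YBX1 and 4.04 in SCC25 +YBX1. Those of CAMK1 were 2.85, 8.38 and 2.92. The part of this overlap in the CAMK1 values was not tested. CAMK1D, a relative of CAMK1, had 6 reads in all in OKF6 and means of 2.00 and 1.26 log2 CPM in SCC15 +YBX1 and SCC25 +YBX1. It was called higher in both (4.13 and 3.40, adjusted p = 0.0041 and 0.021, limma), and the call in SCC25 was lost with quantiles set equal (adjusted p = 0.061). The calls of CAMK1D and of DAPK1 below stand under the limit of the filtration step. Of 16 genes of calmodulin and its kinases 12 were in the tables. Of these, 5 were higher and 3 lower in SCC15 +YBX1 than in OKF6, and 3 higher and 1 lower in SCC25 +YBX1, with medians of 0.82 and 0.05. DAPK1, a calmodulin-dependent death kinase, had no read in OKF6, and its 5.59 CPM in SCC15 +YBX1 was at least 9.55-fold the OKF6 floor. Its call in SCC25 +YBX1 (16 reads in all) was lost with quantiles set equal (adjusted p = 0.059). CAMK2N1, an inhibitor of CaM kinase II, was lower in SCC15 (difference -4.38, adjusted p = 3.2e-07) and in SCC25 (-0.98, adjusted p = 0.014). Between the +YBX1 lines the median was 0.48, and the CAMK1 activator CAMKK1 was higher in SCC15 by 3.09 (adjusted p = 0.03).

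**Figure D2:**
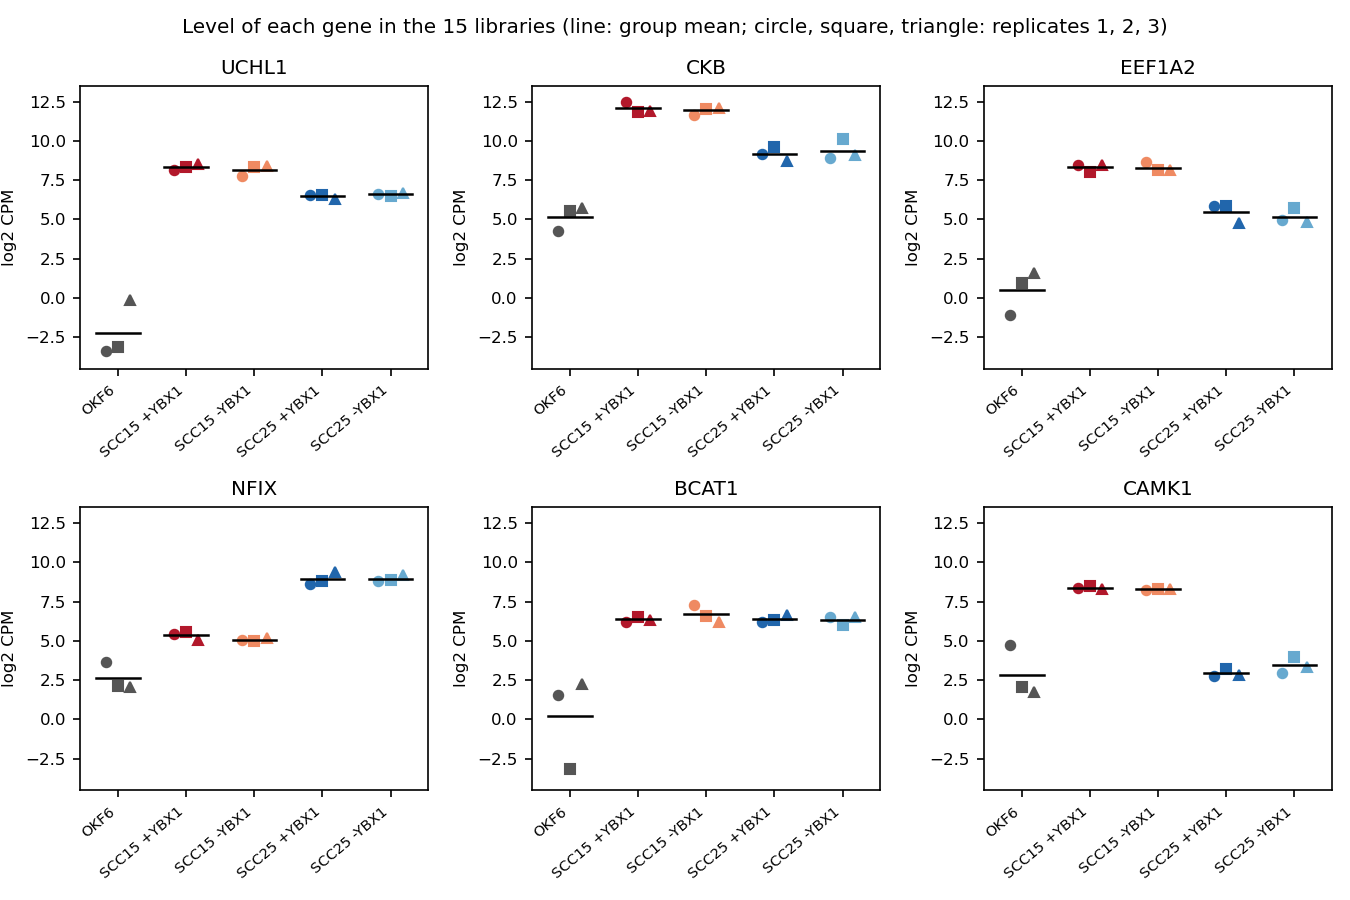
Level of each of the 6 genes, in log2 CPM, in the 15 libraries by group, with black lines at the group means. UCHL1, CKB and EEF1A2 step down from SCC15 to SCC25 to OKF6, NFIX is highest in SCC25, BCAT1 is alike in both cancer lines, and CAMK1 is high in SCC15 only.

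**Figure D3:**
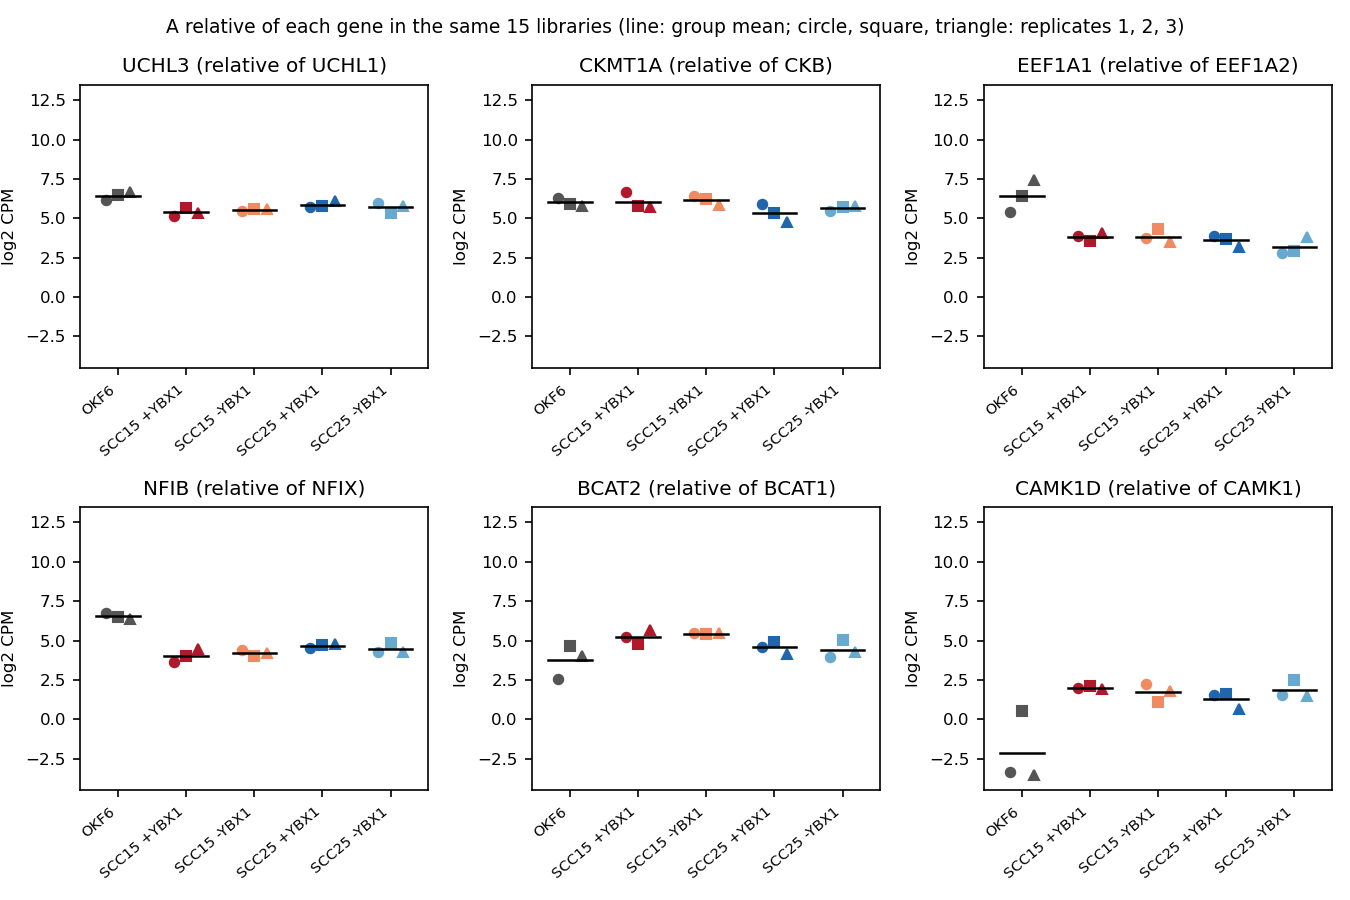
Level of a relative of each gene, in log2 CPM, in the same libraries and on the same scale. EEF1A1 and NFIB are highest in OKF6, at means of 6.43 and 6.55, and in SCC15 and SCC25 each relative lies below the range of its counterpart among the 6 genes. The level of EEF1A1 is uncertain, since it has many near-identical copies in the genome, and so is its place below EEF1A2.

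Replicates of SCC15 +YBX1 and OKF6 did not overlap for 6 of the 6 genes, those of SCC25 +YBX1 and OKF6 for 5, and those of SCC15 +YBX1 and SCC25 +YBX1 for 5, beside 54.4%, 43.3% and 66.6% of all genes. These counts follow from how the genes were chosen, and nothing is read from them. In order of mean level, the +YBX1 and -YBX1 groups of a line stood next to each other for 5 of the genes and overlapped. BCAT1 was the exception, in the order SCC15 -YBX1, SCC25 +YBX1, SCC15 +YBX1 and SCC25 -YBX1, all overlapping.

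The -YBX1 libraries allow the difference between SCC15 and SCC25 to be measured in libraries other than those compared above. Which values the choice of the genes used is not recorded, and the -YBX1 libraries may have been among them. The p-values and intervals that follow are therefore no independent test of these genes. There 5 of the 6 genes differed: UCHL1, CKB, EEF1A2 and CAMK1 were higher in SCC15 -YBX1 than in SCC25 -YBX1, and NFIX was lower. Over all genes 50.5% differed (24.5% higher, 26.1% lower), so a call by itself was common. Ranked by size among all genes, these differences stood at percentile 69.7 for UCHL1, 81.6 for CKB, 84.4 for EEF1A2, 87.8 for NFIX and 91.2 for CAMK1, with BCAT1 at 21.4. The -YBX1 libraries come from the same cell populations as the +YBX1 libraries, so they repeat the measurement rather than the origin of the lines. Same-numbered libraries of a line deviated together to an uneven degree, with correlations of 0.117 to 0.498.

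CAMK1 was higher in SCC15 -YBX1 by 4.83 (SE 0.26, adjusted p = 3.2e-06, limma), which is 28.5-fold with a 95% interval of 18.8 to 43.0. EEF1A2 was higher by 3.14 (SE 0.27, adjusted p = 2.8e-05), or 8.79-fold (5.72 to 13.53). CKB was higher by 2.58 (SE 0.33, adjusted p = 0.00029), or 5.98-fold (3.52 to 10.1). UCHL1 was higher by 1.56 (SE 0.21, adjusted p = 0.00033), or 2.96-fold (2.13 to 4.11). NFIX was lower, with a difference of -3.87 (SE 0.17, adjusted p = 1.8e-06) or 14.6-fold. BCAT1 gave 0.34 (SE 0.29, adjusted p = 0.36), with an interval from 0.80-fold to 2.00-fold, and its libraries overlapped. Those of the other 5 genes did not, as for 60.0% of all genes. Beside these stand the +YBX1 differences of 5.45, 2.82, 2.92, 1.86, -3.59 and -0.03 for CAMK1, EEF1A2, CKB, UCHL1, NFIX and BCAT1. The largest adjusted p over 14 alternatives was 0.0032 for UCHL1, 0.0027 for CKB, 0.00038 for EEF1A2, 5.2e-05 for NFIX and 8.5e-05 for CAMK1.

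**Figure D4:**
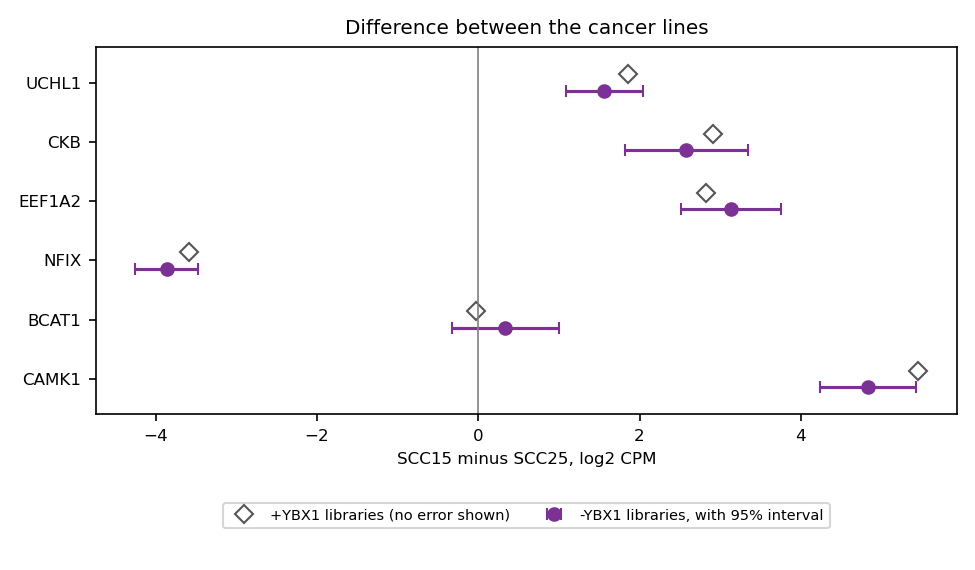
SCC15 minus SCC25 in log2 CPM for each gene, in the +YBX1 libraries (open diamonds, no error shown) and in the -YBX1 libraries (filled circles with 95% intervals from limma). CAMK1, EEF1A2, CKB and UCHL1 lie to the right at 1.56 to 4.83, NFIX to the left at -3.87, and the BCAT1 interval spans 0.

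Among genes of the same systems in these -YBX1 libraries, GAMT was higher in SCC15 by 2.78 (adjusted p = 0.00017, limma) and CKMT1B by 1.19 (adjusted p = 0.0098), which made 2 of the 4 creatine genes. Of the branched-chain genes 10 were higher and 3 lower of 19, with a median of 0.70 beside 0.02 over all genes, and BCAT2 was higher by 1.04 (adjusted p = 0.016). Elongation genes gave 5 higher and 2 lower of 13 (median 0.12). Calmodulin and CaM kinase genes gave 2 higher and 3 lower of 12 (median 0.19), with CAMKK1 higher by 3.25 (adjusted p = 0.00064). The NFI genes gave 0 calls of 3 (median 0.09). Beside all of these counts, 24.5% of all genes were higher and 26.1% lower in this comparison. With quantiles set equal the call of CALM2, 1 of the 3 lower calmodulin genes, was lost (adjusted p = 0.41). That of SLC25A44, a mitochondrial carrier of branched-chain amino acids and 1 of the 3 lower in that list, was lost with medians or quantiles set equal (adjusted p = 0.072 and 0.097).

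Cell type marker lists differed in these libraries too, under the same limit of the filtration step. Over all genes 24.5% were higher and 26.1% lower in SCC15 -YBX1 than in SCC25 -YBX1. All 11 epithelial genes were lower in SCC15 -YBX1, with a median of -7.62. Neuronal genes gave 6 higher and 2 lower of 10, neuroendocrine genes 4 higher of 5, glial genes 2 higher and 1 lower of 4, and mesenchymal genes 4 higher and 3 lower of 8. With quantiles set equal, VIM and COL1A1 lost their calls among the 3 lower mesenchymal genes (adjusted p = 0.12 and 0.059). FN1 was the 1 left, with a difference of -6.63, or -6.35 with quantiles set equal (adjusted p = 1.8e-05, limma). The summed level of the 8 mesenchymal genes was 419 to 516 CPM in SCC15 -YBX1 and 1725 to 3711 CPM in SCC25 -YBX1. GAP43, 1 of the 6 higher neuronal genes, lost its call with quantiles set equal (adjusted p = 0.053), and TUBB3, 1 of the 2 lower, with medians or quantiles set equal (adjusted p = 0.058 and 0.078). Of 13 genes for REST, the repressor of neuronal genes outside the nervous system, and its corepressors, 12 were in the tables, with 3 higher and 3 lower. REST itself was lower in SCC15 +YBX1 than in OKF6 (difference -1.03, adjusted p = 0.01, limma), gave -0.72 in SCC25 +YBX1 without passing (adjusted p = 0.074), and gave -0.02 between the -YBX1 lines (adjusted p = 0.96). RCOR2, a REST corepressor, had 1 read in all in OKF6 and was called higher in both +YBX1 lines (adjusted p = 3.7e-05 and 0.00055, limma), under the same limit. Of the 12 genes, 4 were higher and 2 lower in SCC15 +YBX1 than in OKF6, 2 were higher in SCC25 +YBX1, and 1 was higher and 4 lower in SCC15 +YBX1 than in SCC25 +YBX1. SIN3B, 1 of the 2 higher in SCC25, lost its call with quantiles set equal (adjusted p = 0.053). CTDSP1 and RCOR3, among the 4 lower between the +YBX1 lines, lost theirs with medians set equal (adjusted p = 0.068 and 0.063) and with quantiles set equal (0.098 and 0.086). The part of these marker differences in the levels of the 6 genes was not tested.

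Knockdown of YBX1 gave no call for any of the 6 genes in either line (0 of 6), and 0.00% of all 12995 genes passed in SCC25, in SCC15 or for the difference between the lines (limma, Benjamini-Hochberg). YBX1 itself was not called, at -2.01 log2 units in SCC25 and -2.15 in SCC15 (adjusted p = 0.29 and 0.33, limma). A missing call therefore does not show that a gene did not change. An unadjusted p under 0.05 was reached by 401 genes in SCC25, 302 in SCC15 and 294 for the difference, and among the 6 genes by CAMK1 in SCC25 alone. Replicates of -YBX1 and +YBX1 overlapped for all 6 genes in both lines, and 7.31% of all genes in SCC25 and 7.04% in SCC15 did not overlap. The +YBX1 libraries took part in the choice of the genes, so these tests are not fully independent of it.

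CAMK1 in SCC25 was the member with the smallest p before adjustment. It was 0.52 log2 units higher in -YBX1 (SE 0.22, adjusted p = 1 by limma), or 1.43-fold with a 95% interval of 1.03 to 2.00. It was higher in 3 of 3 same-numbered pairs. Its +YBX1 and -YBX1 libraries in SCC25 held 33 to 46 and 39 to 82 reads. In SCC15, where CAMK1 was high, the difference was -0.10 (interval 0.67-fold to 1.303-fold). The difference between these effects was 0.62 (SE 0.32, adjusted p = 1).

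For UCHL1 the change was 0.12 in SCC25 (0.83-fold to 1.42-fold) and -0.18 in SCC15 (0.68-fold to 1.15-fold). CKB gave 0.21 (0.73-fold to 1.84-fold) and -0.13 (0.57-fold to 1.46-fold). EEF1A2 gave -0.32 (0.51-fold to 1.26-fold) and -0.0027 (0.64-fold to 1.56-fold). NFIX gave 0.01 (0.74-fold to 1.37-fold) and -0.26 (0.61-fold to 1.14-fold), and BCAT1 gave -0.05 (0.67-fold to 1.40-fold) and 0.32 (0.87-fold to 1.81-fold). Each of these 95% intervals spans no change, and none reaches beyond 2-fold in either direction. The BCAT1 value in SCC15 rested on replicate 1, where -YBX1 exceeded +YBX1 by 1.05 log2 units, against 0.05 and -0.14 in the other pairs. CKB in SCC15 likewise differed by -0.81 in pair 1 and by 0.23 and 0.20 in the others. None of the pathway, marker or REST lists held a called gene in either line.

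**Figure D5:**
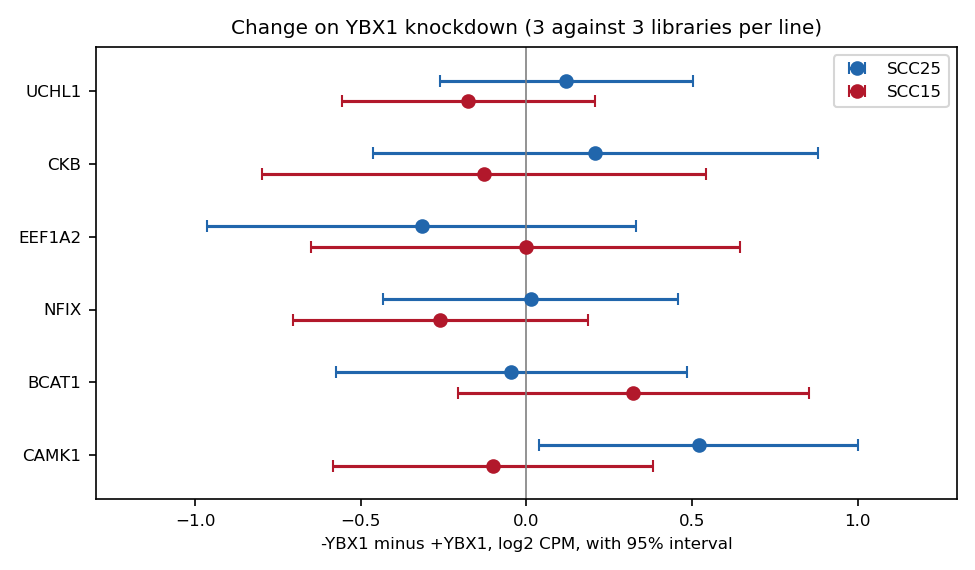
Difference between -YBX1 and +YBX1 libraries in log2 CPM for each gene in SCC25 (blue) and SCC15 (red), with 95% intervals from limma, 3 libraries against 3. All points lie between -0.32 and 0.52, and the interval of CAMK1 in SCC25 is the single one that does not span 0 before adjustment.

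Levels of the 6 genes across the 15 libraries can be compared as a description, with the libraries falling into 3 lines so that a few large steps set each value. CKB and EEF1A2 followed each other most closely (Pearson r = 0.991, 15 libraries), ahead of UCHL1 with EEF1A2 (0.944) and UCHL1 with CKB (0.936). NFIX and CAMK1 had the lowest value (-0.236). Within a line the likeness of CKB and EEF1A2 was 0.713 over the 6 SCC25 libraries and -0.0716 over the 6 SCC15 libraries, so the close match over all libraries came from the steps between lines.

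Among 6465 genes with a symbol and a mean above the median, the neuropeptide gene GAL had the pattern most like UCHL1 (r = 0.998), with means of -2.43 log2 CPM in OKF6, 7.63 in SCC15 +YBX1 and 6.14 in SCC25 +YBX1. The transcription factor TBX1 (0.987) and the collagen chain COL6A1 (0.981) came next. For CKB they were EEF1A2, the electron transfer subunit ETFA (0.981) and the ubiquitin-conjugating enzyme CDC34 (0.976), and for EEF1A2 they were CKB, the helicase DDX41 (0.981) and CDC34 (0.977). NFIX was most like the mitochondrial protease PARL (0.977), the β-secretase BACE1 (0.977) and ERLIN2 (0.9752). BCAT1 was most like MAGED2 (0.967), the homeobox gene HOXD11 (0.96) and MORC2 (0.959), and HOXD11 shared its low OKF6 level, with means of -1.66 in OKF6, 5.83 in SCC15 +YBX1 and 5.98 in SCC25 +YBX1. CAMK1 was most like DCAKD (0.981), SNRNP48 (0.979) and PXMP2 (0.974), whose range was narrower, as in DCAKD with means of 4.20 in OKF6, 5.78 in SCC15 +YBX1 and 4.45 in SCC25 +YBX1.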

How the data were processed

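Of 15 libraries (OKF6, and SCC15 and SCC25 with and without YBX1 knockdown, 3 each), 3′ end reads (QuantSeq FWD) were measured. Per the labels and the methods of the study, the authors used Cutadapt for trimming, HISAT2 with hg38 for alignment, featureCounts for counting and limma for normalisation. The study's methods name a version of limma and of the Galaxy environment, and those of Cutadapt, HISAT2 and featureCounts are not given in the sources used here. What the authors deposited is log2 CPM, with 0.5 reads added before the logarithm, for the lines in 1 table and the knockdown in another, 6 libraries being in both. Taking a library's lowest value as 0 reads gave whole reads (within 0.01) for 100% of values. Of the 12995 genes, 12719 had a symbol.

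The genes and gene lists were chosen with earlier results of these data known. Tests were made by limma 3.58.1 under R 4.3.3 (linear fit, moderated with a variance trend, two-sided, Benjamini-Hochberg over all 12995 genes, threshold 0.05): the lines in the 6 -YBX1 libraries alone, the knockdown in all 12 libraries of its table, and the other genes of each pathway in the 9 libraries of the cell line table. The code was checked on data with changes of known size. Named genes are the 6 members, YBX1, their paralogs, up to 3 genes of each list with the largest called change in a line comparison, and the 3 genes most like each member. TP63, CDH1, REST, SLC25A44, CALM2, DBT, RCOR3, TUBB3, ELAVL2, MAP2, GAP43, VIM, COL1A1 and OGG1 were named after their values were seen. Lists cover the creatine kinase system, ubiquitin and its hydrolases, elongation factors, NFI factors, branched-chain amino acids, CaM kinases, REST, and neuronal, neuroendocrine, glial, epithelial and mesenchymal markers.

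The replicate numbers of the labels were taken to pair the knockdown libraries, since deviations of same-numbered libraries from their group means correlated at 0.498, 0.312 and 0.117 in SCC15 and 0.135, 0.47 and 0.425 in SCC25. Same-numbered libraries of different lines gave -0.198 to 0.264, a range that holds the lowest value of SCC15 and that of SCC25. The study's methods name limma and no block, and the fit was made without one. Gene positions come from GENCODE 44 and promoter windows from RefSeq (GRCh38.p14). Pieces of the last 500 bases of each main transcript were placed on the genome by minimap2 2.31. The alternatives were other scalings, no variance trend, log2(CPM + 1), voom weights on the recovered reads, a filter on low genes, other sets of libraries, the replicate block, and each library left out. Some results among the gene lists are not reported here.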

Additional observations from a re-analysis of the deposited data

How the results depend on the processing

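The 5 calls between the -YBX1 lines held under all 14 alternatives, as did the absence of a call for BCAT1 and for the 6 genes in the knockdown. The main fit did not call the targeted gene YBX1 on knockdown either, so the absence there does not show that the 6 genes did not change. The alternatives use the same libraries, so they bear on the processing and not on how the genes were chosen. With the replicate block, paired by number, the count of genes was 6283 between the -YBX1 lines and 0 in each knockdown comparison, and no call of the 6 genes changed. With library medians set equal and quantiles set equal the median of all genes moved from 0.02 to 0.15 and 0.19 between the -YBX1 lines, so differences of that size are within the scaling. Knockdown values that are not called turned in sign. With quantiles set equal EEF1A2 in SCC15 became 0.088. With each library left out in turn, NFIX in SCC25 ranged from -0.16 to 0.25, BCAT1 from -0.14 to 0.14 and CKB from -0.16 to 0.43, while in SCC15 EEF1A2 ranged from -0.18 to 0.092, CKB from -0.25 to 0.071 and UCHL1 from -0.31 to 0.028, and the difference of the CKB effects ranged from -0.033 to 0.56. The count of genes called on knockdown in SCC25 was 0 to 6 over the same exclusions, the 6 (all lower) coming without SCC25 -YBX1 replicate 2. CAMK1 in SCC25 +YBX1 against OKF6 ranged from -0.49 to 1.04, and BCAT1 between the +YBX1 lines from -0.12 to 0.084, or 0.12 with medians and 0.20 with quantiles set equal. The cause was not tested. Of 700 values recomputed, 675 counted as unchanged, 22 turned in sign and 3 moved. In the tested comparisons, unchanged means the same direction and side of the threshold. For the differences from OKF6 and between the +YBX1 lines, which carry no test, it means the same direction and a shift smaller than the gene's residual SD. For counts of called genes it means a count within a set fold limit. Depth limits UCHL1, EEF1A2 and BCAT1 in OKF6, at 5, 27 and 43 reads in all, and CAMK1 in SCC25.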
